A study of Mus musculus with 19 samples.

Results

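*Brca1*, its partner *Bard1* and 7 further genes of the BRCA1 complexes were followed in RNA of E13.5 mouse neocortex. The 9 genes were chosen by name as a family, with earlier results of these data known, and all 9 were found among the 51912 genes counted in each library. They are *Brca1*, *Bard1*, *Abraxas1*, *Babam1*, *Babam2*, *Brcc3*, *Uimc1*, *Brip1* and *Rbbp8*, and all 9 had enough counts to be tested in every comparison. One library was made per embryo, from 7 control embryos (ctrl), 5 *Emx1-Cre* *Ino80* conditional mutants (cKO-E) and 7 *Emx1-Cre* conditional double mutants of *Ino80* and *Trp53* (dKO-E), all on a mixed C57BL/6 and 129 background. The labels do not give the alleles that ctrl embryos carried. *Emx1-Cre* acts in dorsal progenitors of the telencephalon and in the cells born from them, so interneurons from the ventral telencephalon, microglia and vessels in the dissected tissue keep intact genes. INO80 is the ATPase of a chromatin remodeller, and *Trp53* encodes p53.

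BRCA1 and BARD1 form a ubiquitin ligase at the centre of several mutually exclusive complexes that act at DNA double-strand breaks. In the BRCA1-A complex, the scaffold Abraxas (*Abraxas1*) binds the phosphopeptide-reading end of BRCA1 and holds together the ubiquitin-binding RAP80 protein (*Uimc1*), the deubiquitinase BRCC36 (*Brcc3*) and the subunits MERIT40 (*Babam1*) and BRE (*Babam2*), and the complex is known for holding back end resection. The helicase BRIP1 (*Brip1*) and the resection factor CtIP (*Rbbp8*) bind the same end of BRCA1 in its B and C complexes. Dividing neural progenitors are a main site of *Brca1* expression in embryonic cortex.

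Between 820915 and 8095810 deduplicated reads (counts) fell on genes per library. Values are given as CPM, counts per 1000000 counts of a library after scaling by edgeR's TMM factors. The counts are sums over whole genes and carry no view of the deleted exons, so they do not check the deletion. *Ino80* itself was counted at 110 to 133 CPM in ctrl, 146 to 181 in cKO-E and 160 to 200 in dKO-E. *Trp53* lay between 36.7 and 49.9 CPM in ctrl, 34.0 and 43.9 in cKO-E and 26.9 and 42.4 in dKO-E, and the summed level of 10 p53 targets lay at 180 to 196, 336 to 382 and 160 to 189 CPM. *Sox2*, a radial glia marker, and *Tubb3*, a neuron marker, were listed at 0 counts in every library, while the other 9 markers of either list had counts in each group. Batch 1 held 4 ctrl, 3 cKO-E and 4 dKO-E embryos, batch 2 held 3, 2 and 2, and batch 3 held 1 dKO-E embryo. The 7 dKO-E embryos came from 2 litters, of which 1 also held ctrl embryos.

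All 9 genes were expressed in ctrl cortex, and their levels were divided by exon length to set them in an order. This length joins all annotated exons of a gene, from 2406 bases for *Babam1* to 12521 for *Rbbp8*. Which transcripts were expressed was not tested. A gene with long exons that are little used would be placed too low, so the order is approximate. *Babam2* was highest, at 24.5 ± 0.624 CPM per kb of exon (SD, n = 7), and none of its ctrl values overlapped those of another of the 9 genes. *Babam1*, *Bard1*, *Uimc1* and *Brca1* followed at 14.5 ± 1.54, 13.5 ± 2.01, 13.2 ± 1.14 and 12.5 ± 1.48 CPM per kb (SD, n = 7), and each overlapped its neighbour in this order. *Brip1* lay at 9.51 ± 1.66, *Brcc3* at 7.65 ± 0.676, *Rbbp8* at 6.55 ± 0.984 and *Abraxas1* at 6.29 ± 0.891 CPM per kb (SD, n = 7), again with overlapping neighbours. Among 12024 expressed genes, the ctrl level per kb of *Babam2* stood at percentile 86.8, that of *Brca1* at 70 and that of *Abraxas1* at 46.7.

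**Figure D1:**
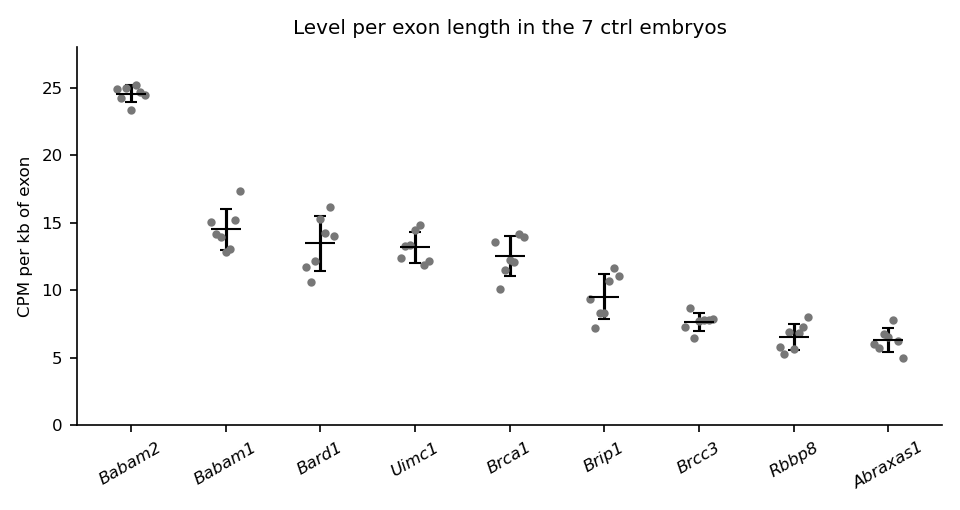
Level of each gene in CPM per kb of exon (vertical axis) in the 7 ctrl embryos, with grey points for embryos and black marks for mean ± SD. *Babam2* stands above the other genes at a mean of 24.5, and *Abraxas1* is last at 6.29.

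The scaffold of the A complex, *Abraxas1* (ENSMUSG00000035234.18, GRCm38 chromosome 5, 100805192 to 100820965, minus strand), fell to 0.493 of its ctrl level in cKO-E and to 0.484 in dKO-E. In ctrl it ranged from 15.01 to 23.6 CPM with a median of 18.7. The 5 cKO-E embryos had 10.6, 7.05, 11.7, 7.41 and 8.77 CPM. The dKO-E embryos ranged from 8.48 to 13.0 CPM with a median of 8.88. Every mutant embryo of either genotype was below every ctrl embryo. These values rest on few molecules, with 27 to 85 counts per ctrl library, 6 to 32 per cKO-E library and 12 to 69 per dKO-E library. Tested with edgeR (quasi-likelihood), the change against ctrl on the log2 scale came to -1.02 (SE 0.15, adjusted p = 0.000214) in cKO-E and -1.05 (SE 0.12, adjusted p = 1.2e-05) in dKO-E, both against the same ctrl embryos. *Gm43513*, which shares 67 exon bases with it on the same strand, had 0 counts in all 19 libraries.

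The deubiquitinase gene *Brcc3* (ENSMUSG00000031201.17, chromosome X, 75416628 to 75454001, plus strand) also fell in both mutants. It ranged from 50.8 to 68.3 CPM in ctrl, with a median of 61.3. The cKO-E embryos had 44.5, 47.6, 44.1, 54.4 and 53.3 CPM. The dKO-E embryos ranged from 40.1 to 55.1 CPM with a median of 43.2. Both mutant groups overlapped the lowest ctrl embryo, but all 5 cKO-E and all 7 dKO-E embryos were below the ctrl median. The log2 fold change was -0.32 (SE 0.09, adjusted p = 0.0143, edgeR) in cKO-E and -0.44 (SE 0.08, adjusted p = 0.00118) in dKO-E. *Brcc3* is X-linked, and the groups differed in sex, with 4 females and 3 males in ctrl, 4 and 1 in cKO-E and 2 and 5 in dKO-E. With sex as a covariate its log2 fold changes were -0.30 (adjusted p = 0.0233, edgeR) and -0.45 (adjusted p = 0.00116).

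*Babam2* (ENSMUSG00000052139.18, chromosome 5, 31697684 to 32084962, plus strand), which encodes the BRE subunit that links MERIT40 to the deubiquitinase, moved the other way. In ctrl it ranged from 112 to 120 CPM with a median of 118. The cKO-E embryos had 133, 132, 150, 157 and 148 CPM. The dKO-E embryos ranged from 134 to 158 CPM with a median of 149. Every mutant embryo was above every ctrl embryo. The log2 fold change was 0.29 (SE 0.06, adjusted p = 0.00189, edgeR) in cKO-E and 0.33 (SE 0.05, adjusted p = 0.000149) in dKO-E, which is 1.22 and 1.26 times the ctrl level.

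The remaining A complex genes were not called in either mutant. *Babam1* had 30.9 to 41.7 CPM in ctrl, 27.0 to 39.5 in cKO-E and 28.7 to 38.9 in dKO-E. On the log2 scale it differed from ctrl by -0.16 (95% interval -0.38 to 0.06, adjusted p = 0.296, edgeR) in cKO-E and -0.17 (-0.36 to 0.02, adjusted p = 0.204) in dKO-E. *Uimc1*, the gene of the ubiquitin reader that brings the complex to breaks, had 60.4 to 75.3 CPM in ctrl, 58.1 to 78.5 in cKO-E and 59.5 to 89.9 in dKO-E. On the log2 scale it differed from ctrl by 0.10 (-0.07 to 0.28, adjusted p = 0.405) in cKO-E and 0.13 (-0.05 to 0.31, adjusted p = 0.303) in dKO-E. The groups overlapped for both genes.

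**Figure D2:**
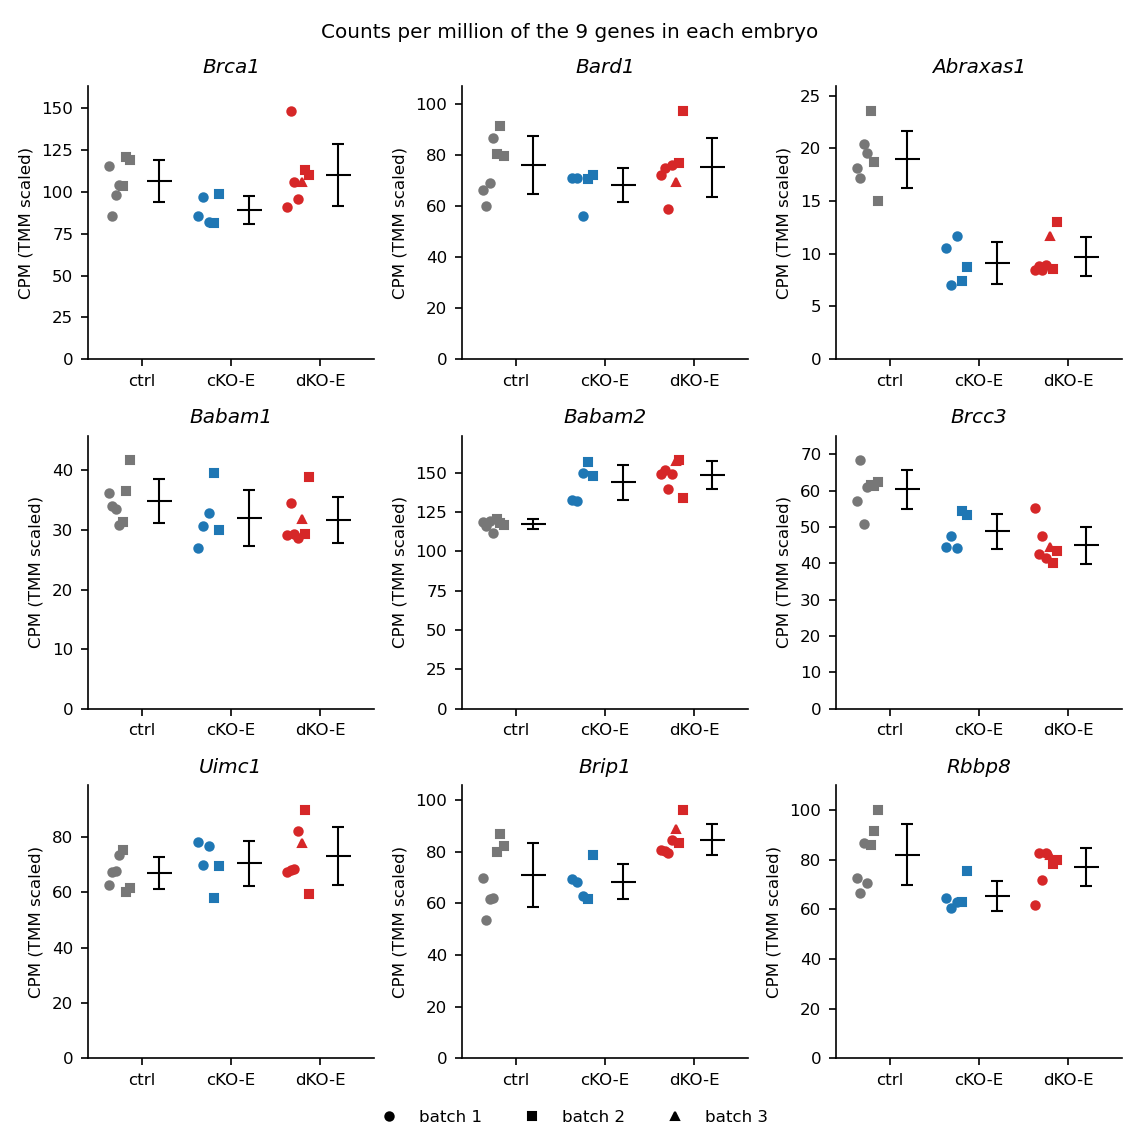
CPM of each of the 9 genes (vertical axes, from 0) in ctrl (grey), cKO-E (blue) and dKO-E (red) embryos, with point shape for batch and black marks for mean ± SD of 7, 5 and 7 embryos. *Abraxas1* is lower and *Babam2* higher in every mutant embryo than in any ctrl embryo, whereas the groups overlap for the other genes against ctrl.

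The ratio of counts of 2 subunits within one library does not depend on how libraries are scaled. For each count of *Abraxas1*, the ctrl libraries held between 5.11 and 7.78 counts of *Babam2*, and the median was 6.29. Those of cKO-E held 12.6, 18.7, 12.8, 21.2 and 16.9. Those of dKO-E held between 10.3 and 18.5, with a median of 16.7. For each count of *Brcc3*, there were between 1.70 and 2.35 counts of *Babam2* in ctrl, 2.77 and 3.397 in cKO-E and 2.70 and 3.94 in dKO-E. Neither ratio to *Babam2* overlapped between ctrl and either mutant. These ratios were formed from genes already seen to differ and were not tested.

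**Figure D3:**
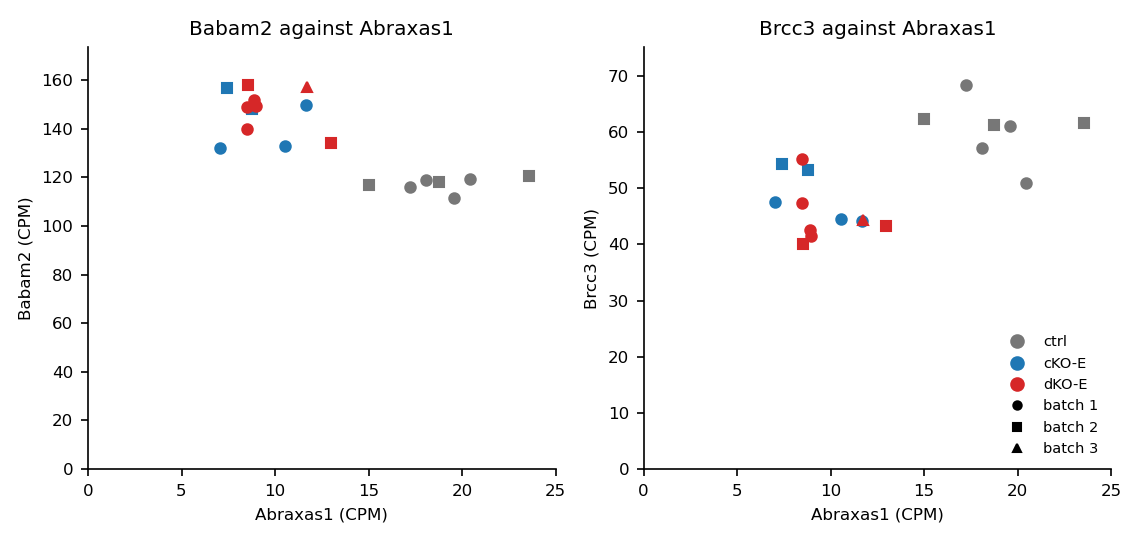
*Babam2* (left) and *Brcc3* (right) in CPM against *Abraxas1* in CPM, 1 point per embryo, coloured by genotype and shaped by batch, with axes from 0. Mutant embryos lie at 7.05 to 13.0 CPM of *Abraxas1* and ctrl embryos at 15.01 to 23.6, with cKO-E and dKO-E points mixed.

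The 3 differences had the same direction within batches and among littermates. In batch 1, *Abraxas1* was at 18.8 ± 1.45 CPM (SD, n = 4) in ctrl, while cKO-E had 9.76 ± 2.41 (SD, n = 3) and dKO-E had 8.70 ± 0.255 (SD, n = 4). In batch 2 it was at 19.1 ± 4.29 (SD, n = 3), 8.09 ± 0.962 (SD, n = 2) and 10.8 ± 3.13 (SD, n = 2), where the dKO-E difference had an adjusted p of 0.123 (edgeR) at a log2 fold change of -0.94. *Babam2* in batch 2 alone had log2 fold changes of 0.36 (adjusted p = 0.0626) and 0.32 (adjusted p = 0.13), and *Brcc3* had -0.20 (adjusted p = 0.475) and -0.59 (adjusted p = 0.0419). The 3 cKO-E embryos with ctrl littermates, from 3 litters, and the 3 dKO-E embryos with ctrl littermates, from 1 litter, were all below their littermates in *Abraxas1* and *Brcc3* and above them in *Babam2*. The same embryos gave the calls, so this is not separate support. Genes not called against ctrl did likewise: all 3 cKO-E embryos were below their littermates in *Brca1* and *Rbbp8* and above them in *Uimc1*. All 3 dKO-E embryos were above theirs in *Brip1*. With litter as a block, *Brcc3* lost its call, at a log2 fold change of -0.27 (adjusted p = 0.113) in cKO-E and -0.41 (adjusted p = 0.0514) in dKO-E.

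Start-site sequence is shown for *Abraxas1*, *Brcc3* and *Babam2*, the A complex genes that differed in both mutants, and for *Brip1*, which differed between the mutants, from 250 bases before to 50 after the RefSeq start on GRCm38.p6. The *Abraxas1* window is chr5:100820886-100821185 (minus strand), *Brcc3* is chrX:75416378-75416677 (plus), *Babam2* is chr5:31697800-31698099 (plus) and *Brip1* is chr11:86201144-86201443 (minus). Capitals mark CCAAT or its reverse complement.
Abraxas1: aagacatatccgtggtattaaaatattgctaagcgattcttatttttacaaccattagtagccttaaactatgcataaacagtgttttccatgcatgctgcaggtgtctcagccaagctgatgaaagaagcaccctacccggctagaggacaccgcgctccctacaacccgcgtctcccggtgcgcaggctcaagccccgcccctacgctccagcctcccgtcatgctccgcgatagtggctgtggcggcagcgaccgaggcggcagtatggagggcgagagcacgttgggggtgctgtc
Brcc3: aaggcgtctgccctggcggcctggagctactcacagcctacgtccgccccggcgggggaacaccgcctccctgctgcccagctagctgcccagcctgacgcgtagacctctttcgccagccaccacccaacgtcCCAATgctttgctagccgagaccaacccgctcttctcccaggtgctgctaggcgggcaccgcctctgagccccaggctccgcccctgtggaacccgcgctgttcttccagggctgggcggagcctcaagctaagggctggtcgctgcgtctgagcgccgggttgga
Babam2: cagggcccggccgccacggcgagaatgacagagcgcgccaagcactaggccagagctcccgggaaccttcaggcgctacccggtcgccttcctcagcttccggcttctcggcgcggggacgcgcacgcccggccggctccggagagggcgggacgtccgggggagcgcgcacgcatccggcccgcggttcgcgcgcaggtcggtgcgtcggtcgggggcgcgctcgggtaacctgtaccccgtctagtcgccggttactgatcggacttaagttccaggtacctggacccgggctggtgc
Brip1: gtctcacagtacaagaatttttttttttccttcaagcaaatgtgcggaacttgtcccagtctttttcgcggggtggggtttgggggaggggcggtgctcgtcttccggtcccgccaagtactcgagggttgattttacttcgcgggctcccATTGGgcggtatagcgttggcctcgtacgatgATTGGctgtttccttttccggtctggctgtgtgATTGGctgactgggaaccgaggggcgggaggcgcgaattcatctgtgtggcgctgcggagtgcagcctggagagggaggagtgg

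Start-site windows on chromosome 18, which holds *Rbbp8*, were not used. The other 8 of the 9 genes had windows. Both strands were searched for the core CCATNTT of YY1, a factor that can recruit INO80, for the E2F sites TTTCGCGC, TTTGGCGC and TTTCCCGC, for the cell cycle element TTTGAA and for CCAAT, and no matches overlapped. *Abraxas1* and *Babam2* held none of these letters. The *Babam2* window begins at 31697800, after the GENCODE start of the gene at 31697684, and so does not cover that start. *Brcc3* held 1 CCAAT, *Brip1* held 3 in the reverse orientation and *Brca1*, *Babam1* and *Uimc1* each held 1, where 37.4% of all 32851 windows held at least 1. The YY1 core was found only in *Babam1*, with 2 matches, against 16.1% of all windows. *Bard1* held 1 E2F site, present in 1.84% of windows, and the cell cycle element was found in *Bard1* and *Uimc1*, against 17.9%. The *Babam2* window had 72.3% G and C and 44 CpG and the *Abraxas1* window 55.7% and 20, where the medians over all windows were 52.7% and 7.

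*Brca1* and *Bard1* themselves were not called against ctrl. *Brca1* (ENSMUSG00000017146.12, chromosome 11, 101488764 to 101551955, minus strand) ranged from 85.9 to 121 CPM in ctrl with a median of 104. The cKO-E embryos had 85.7, 96.9, 82.1, 81.5 and 98.9 CPM. The dKO-E embryos ranged from 90.9 to 149 CPM with a median of 106. All cKO-E embryos were below the ctrl median, but the groups overlapped, and the log2 fold change was -0.24 (SE 0.09, adjusted p = 0.0784, edgeR) in cKO-E and 0.05 (SE 0.10, adjusted p = 0.776) in dKO-E. *Bard1* ranged from 60.2 to 91.4 CPM in ctrl, 56.2 to 72.2 in cKO-E and 59.0 to 97.3 in dKO-E, with log2 fold changes of -0.14 (95% interval -0.38 to 0.10, adjusted p = 0.408) and -0.05 (-0.27 to 0.18, adjusted p = 0.82). *Brca1* was called in cKO-E in 2 of 26 alternative fits, at an adjusted p of 0.0445 with sex as a covariate and 0.0146 without ctrl embryo B. It was not called with litter as a block (adjusted p = 0.182, edgeR) or in batch 1 alone (0.23).

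The resection factor gene *Rbbp8* was close to the threshold in cKO-E. It ranged from 66.5 to 100 CPM in ctrl with a median of 85.7. The cKO-E embryos had 64.6, 60.6, 63.1, 63.0 and 75.6 CPM. The dKO-E embryos ranged from 61.7 to 82.9 CPM with a median of 80.0. Of the cKO-E embryos, 4 were below every ctrl embryo, and the log2 fold change was -0.30 (SE 0.10, adjusted p = 0.0527, edgeR). It passed the threshold in 10 of 26 alternative fits, for example with batch as a covariate (adjusted p = 0.0141). The dKO-E value on the log2 scale was -0.08 (SE 0.09, adjusted p = 0.592).

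The helicase gene *Brip1* (ENSMUSG00000034329.16, chromosome 11, 86058138 to 86201193, minus strand) was the only 1 of the 9 genes called between dKO-E and cKO-E. It ranged from 53.7 to 86.9 CPM in ctrl with a median of 69.8. The cKO-E embryos had 69.6, 68.5, 63.1, 61.8 and 79.0 CPM. The dKO-E embryos ranged from 79.5 to 96.2 CPM with a median of 83.6. Every dKO-E embryo was above every cKO-E embryo, with 79.5 and 79.0 CPM as the closest pair, and both overlapped ctrl. The log2 fold change of dKO-E against cKO-E was 0.27 (SE 0.07, adjusted p = 0.0176, edgeR). The adjusted p was 0.0719 without cKO-E embryo C and 0.0838 without the libraries under 1500000 counts. Against ctrl, *Brip1* had log2 fold changes of -0.00 (SE 0.11, adjusted p = 0.993) in cKO-E and 0.26 (SE 0.09, adjusted p = 0.0675) in dKO-E. Its level differed between batches in ctrl, at 61.9 ± 6.56 CPM (SD, n = 4) in batch 1 and 83.0 ± 3.58 (SD, n = 3) in batch 2, and the dKO-E difference from ctrl passed the threshold with batch as a covariate, at 0.29 (adjusted p = 0.0137, edgeR). It was 0.38 (adjusted p = 0.012) in batch 1 alone and 0.08 (adjusted p = 0.808) in batch 2 alone.

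The A complex genes that differed from ctrl were not called between the mutants, which differ in *Trp53*. Between dKO-E and cKO-E, the log2 difference of *Abraxas1* was -0.01 (95% interval -0.40 to 0.38, adjusted p = 0.981, edgeR), that of *Babam2* was 0.06 (-0.09 to 0.20, adjusted p = 0.64) and that of *Brcc3* was -0.11 (-0.32 to 0.11, adjusted p = 0.526). The mutants shared no litter, so genotype and litter cannot be told apart here, and the part of *Trp53* in these values was not tested. *Brca1* and *Rbbp8* had higher values in dKO-E, with differences of 0.30 (0.07 to 0.54, adjusted p = 0.0624) and 0.23 (0.04 to 0.42, adjusted p = 0.0816) that did not pass the threshold. *Bard1*, *Babam1* and *Uimc1* had differences of 0.11 (-0.11 to 0.33), -0.00 (-0.24 to 0.24) and 0.04 (-0.17 to 0.25).

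**Figure D4:**
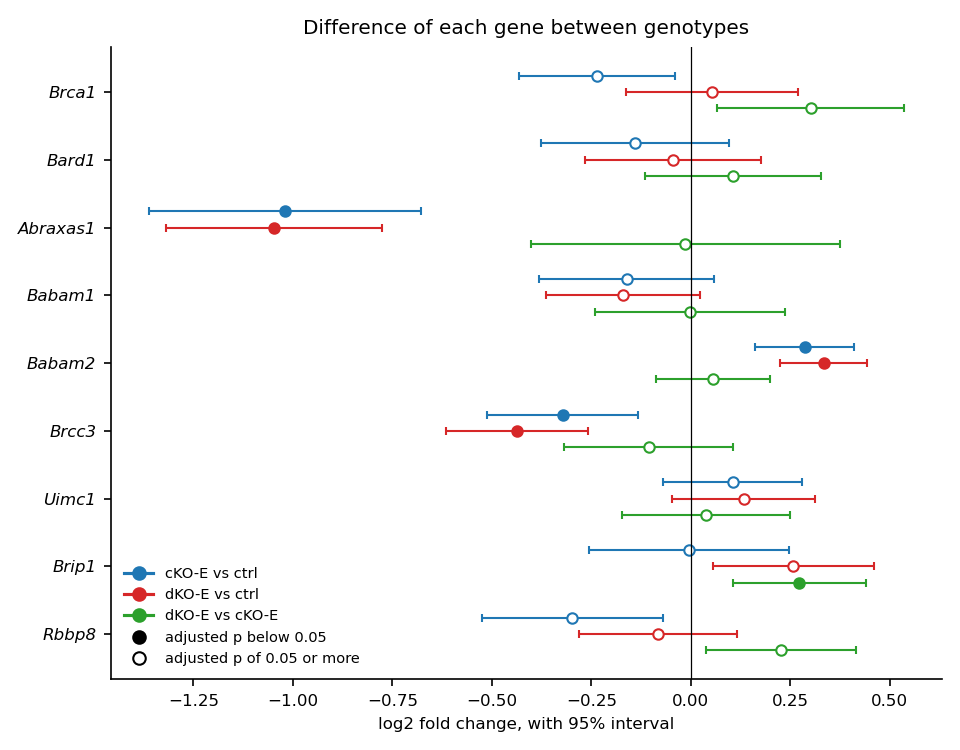
Log2 fold change of each gene (horizontal axis) with its 95% interval in cKO-E against ctrl (blue), dKO-E against ctrl (red) and dKO-E against cKO-E (green), with filled points for adjusted p below 0.05. *Abraxas1* and *Brcc3* are filled below 0 and *Babam2* above 0 in both comparisons with ctrl, and *Brip1* is filled between the mutants.

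Counted over the 9 genes, 2 were called lower and 1 higher in cKO-E, where 9.88% of the 11660 genes tested were called lower and 7.31% higher. In dKO-E again 2 were called lower and 1 higher, against 10% and 5.45% of 11381 genes. Between dKO-E and cKO-E, 1 was called, higher in dKO-E, where 9.42% of 11746 genes were called lower and 5.59% higher. Without TMM factors the median log2 fold change of all genes in dKO-E against ctrl moved from 0.01 to 0.10, and the genes called lower and higher changed from 1139 and 620 to 694 and 1783. The same change took 1152 and 852 to 910 and 1068 in cKO-E and 1106 and 657 to 942 and 1064 between the mutants. *Abraxas1*, *Brcc3* and *Babam2* kept their calls and directions there. The groups did not overlap for *Abraxas1* (lower) and *Babam2* (higher) in cKO-E, where this held for 5.64% of genes tested in the lower and 3.19% in the higher direction. The same 2 genes did not overlap in dKO-E, against 3.22% lower and 1.20% higher, and between the mutants only *Brip1* did not overlap, against 4.64% lower and 2.52% higher. The median log2 fold change of the 9 genes was -0.16 in cKO-E, -0.05 in dKO-E and 0.06 between the mutants, and those of all genes tested were 0.02, 0.01 and 0.02. Both comparisons with ctrl used the same 7 embryos.

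Bulk tissue cannot tell fewer cells of a type from less RNA per cell, and markers of several cell types differed in the same comparisons. Counts of called markers stand beside the shares of all genes tested. These were 9.88% lower and 7.31% higher in cKO-E, 10% and 5.45% in dKO-E, and 9.42% and 5.59% between the mutants. The summed level of 20 S and G2/M genes was 2404 to 3177 CPM in ctrl, 1930 to 2553 in cKO-E and 2211 to 3215 in dKO-E. In cKO-E, 5 of the 20 were called lower, among them *Mcm2* (-0.79, SE 0.13) and *Mki67* (-0.30, SE 0.07). *Mcm2* was also lower in dKO-E against ctrl (-0.71, SE 0.12, adjusted p = 0.000537, edgeR) and differed by 0.09 (SE 0.11) between the mutants. Between dKO-E and cKO-E 6 were called higher, including *Aurka* (0.54, SE 0.13). The median log2 fold change of the 20 genes was -0.26 in cKO-E, 0.03 in dKO-E and 0.30 between the mutants, and *Brca1* had -0.24, 0.05 and 0.30. In dKO-E 1 cell cycle gene was called lower and 1 higher. Summed markers of intermediate progenitors were 369 to 451 CPM in ctrl, 292 to 384 in cKO-E and 296 to 444 in dKO-E, and 2 of 5 were called lower in cKO-E, *Eomes* (-0.32, SE 0.09) and *Neurog2* (-0.39, SE 0.09). Summed markers of projection neurons were 3047 to 4648 CPM in ctrl, 3591 to 4423 in cKO-E and 2560 to 3613 in dKO-E. All 9 projection neuron markers tested had values below 0 in dKO-E against ctrl, with a median log2 fold change of -0.29, and 2 of them were called lower, *Bcl11b* (-0.42, SE 0.13) and *Map2* (-0.38, SE 0.07). Between the mutants 4 of the 9 were called lower in dKO-E. Summed levels were also taken for markers of interneurons (9.15 to 83.7 CPM in ctrl, 63.8 to 119 in cKO-E, 28.8 to 69.2 in dKO-E) and of microglia (4.65 to 13.3, 27.6 to 36.8 and 5.86 to 10.5). In cKO-E against ctrl, 1 of the 4 interneuron markers tested and all 3 microglia markers tested were called higher. The likelihood-ratio test called 3 of the interneuron markers higher there. Between the mutants, all 4 interneuron markers and both of the 2 microglia markers tested were called lower in dKO-E. None of the 6 interneuron markers and 1 of the 10 microglia markers, *Trem2* in ctrl, was at 0 over a whole group. Summed radial glia markers lay at 1238 to 1412 CPM in ctrl, 1038 to 1350 in cKO-E and 1108 to 1301 in dKO-E. Of the 9 tested in cKO-E, 4 were called lower (*Pax6*, *Hes1*, *Nes* and *Prom1*) and 1 higher, *Fabp7* (0.56, SE 0.08). In dKO-E against ctrl 2 were called lower and 0 higher, and between the mutants 1 lower and 2 higher. The part of any of these cell types in the values of the 9 genes was not tested.

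The genes whose levels followed *Brca1* most closely over the 19 libraries were *Lrig1*, *Usp1*, *Kif4*, *Kif11* and *Pold3*, with Pearson's r between 0.840 and 0.846 of log2 CPM among 9288 genes. *Kif4* and *Kif11* encode mitotic kinesins, *Pold3* a subunit of DNA polymerase delta and *Usp1* the deubiquitinase of the Fanconi pathway. Of the other 8 genes, *Rbbp8* was closest to *Brca1* (r = 0.671, rank 246), then *Brip1* (0.563, rank 680) and *Bard1* (0.462, rank 1249). *Abraxas1* had 0.164, *Babam2* -0.124 and *Brcc3* -0.079. These values describe libraries that share batches and genotypes.

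The steps that bring the A complex to breaks were represented by 14 genes, of which 12 could be tested. *Rnf8*, the first ubiquitin ligase of that pathway, was listed at 0 counts in all groups, as were *Sox2* and *Tubb3*. Whether its RNA was absent or was missed by the counting was not tested. In cKO-E 2 were called lower and 1 higher, where 9.88% of all genes tested were called lower and 7.31% higher. *Mdc1*, the reader of phosphorylated H2AX, fell by 0.35 on the log2 scale (SE 0.06, adjusted p = 0.000485, edgeR), *Rif1*, which acts with 53BP1 against resection, fell by 0.24 (SE 0.07, adjusted p = 0.0269) and *Rnf169*, which competes for ubiquitinated chromatin, rose by 0.20 (SE 0.06, adjusted p = 0.0363). In dKO-E 3 were called lower and 1 higher, including *Trp53bp1*, the gene of 53BP1 (-0.25, SE 0.06, adjusted p = 0.0051) and *Rnf169* (-0.21, SE 0.06, adjusted p = 0.016). Between the mutants, *Rnf169* was lower in dKO-E (-0.40, SE 0.07, adjusted p = 0.000355) and *Mdc1* higher (0.33, SE 0.08, adjusted p = 0.00594), within 1 lower and 3 higher calls. Over all genes tested, 10% were called lower and 5.45% higher in dKO-E, and 9.42% and 5.59% between the mutants.

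Partners that act with BRCA1 in resection and recombination were also counted. Of 10 genes of the B and C complexes and end resection, 0 were called by edgeR's quasi-likelihood test in cKO-E, where 3 had lower values at an unadjusted p under 0.05, the likelihood-ratio test called 1 lower and DESeq2 called 0. In that quasi-likelihood test, 1804 of all 11660 genes had lower values at the same unadjusted p. In dKO-E 0 were called by all 3 tools, with 2 higher values at an unadjusted p under 0.05 in the quasi-likelihood test. Of all 11381 genes tested there, 1496 had such higher values. Of 12 genes that act with *Palb2* in homologous recombination, *Xrcc2* (-0.42, SE 0.10, adjusted p = 0.00844, edgeR) and *Morf4l1* (-0.28, SE 0.06, adjusted p = 0.00273) were called lower in cKO-E. In dKO-E *Rad51b* was higher (0.39, SE 0.08, adjusted p = 0.00291) and *Morf4l1* lower (-0.21, SE 0.06, adjusted p = 0.0194). Between the mutants *Rad51b* (0.39, SE 0.08), *Xrcc2* (0.37, SE 0.11) and *Rad54l* (0.34, SE 0.10) were higher in dKO-E. Over all genes tested, 9.88% were called lower in cKO-E, 10% lower and 5.45% higher in dKO-E, and 5.59% higher between the mutants. BRISC is a second complex built on BRCC36, MERIT40 and BRE, and its scaffold *Abraxas2* was not called in any comparison at log2 fold changes of 0.03 in cKO-E, -0.11 in dKO-E and -0.13 between the mutants. *Shmt2*, a metabolic enzyme that binds BRISC, rose in dKO-E relative to cKO-E (0.65, SE 0.14, adjusted p = 0.00352).

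**Figure D5:**
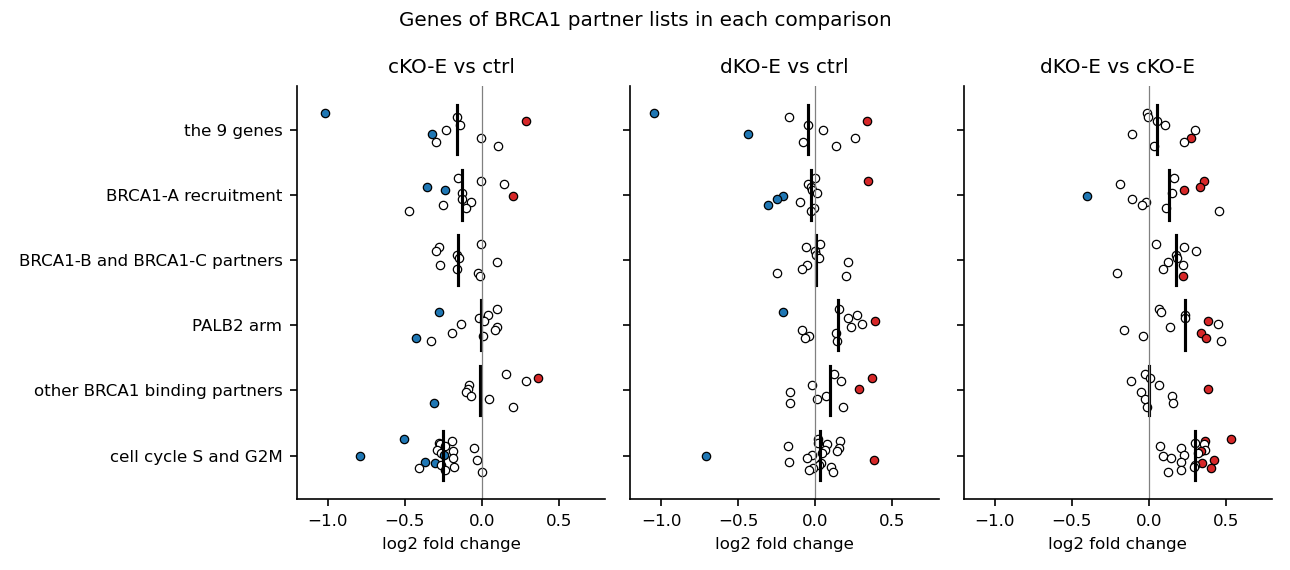
Log2 fold changes (horizontal axes) of genes in 6 lists, 1 point per gene and a black bar at the list's median, in the 3 comparisons, with blue for called lower, red for called higher and white for not called. *Abraxas1* is the leftmost point of the 9 genes against ctrl, and the cell cycle list has a median of -0.26, 0.03 and 0.30.

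By their GENCODE starts, several of the 9 genes lie beside a gene on the opposite strand. *Brca1* and *Nbr1* start 194 bp apart, *Babam2* and *Rbks* 57 bp, *Brcc3* and *Cmc4* 44 bp and *Brip1* and *Brip1os* 177 bp. None of these neighbours was called in any comparison. *Rbks*, beside *Babam2*, had log2 fold changes of 0.07 (SE 0.30) in cKO-E and -0.27 (SE 0.25) in dKO-E, on 2 to 27 counts per library. *Cmc4*, beside *Brcc3*, had 0.15 (SE 0.26) and 0.42 (SE 0.19), opposite in sign to *Brcc3* but on only 3 to 56 counts per library. *Mtcp1*, which starts 40 bp from *Brcc3*, had 0 counts in all 19 libraries and was not tested. *Nbr1*, beside *Brca1*, had -0.10 (SE 0.06, adjusted p = 0.226, edgeR) in cKO-E and -0.16 (SE 0.06, adjusted p = 0.064) in dKO-E. *Brip1os* had 0.10 (SE 0.10, adjusted p = 0.551, edgeR) between dKO-E and cKO-E. The strand setting of the counting is not given in the sources used here, so reads of a gene and its antisense partner may not be told apart where they share bases. On the opposite strand, *Uimc1* shares 416 exon bases with *Gm6344* (0 counts) and *Rbbp8* 402 with *AC090479.2*, which was not in the count files. *Babam2* shares 83 there with *Gm17130* (6 counts in all libraries together). On its own strand *Babam2* shares 147 with *Gm43809* (206 counts). Stretches of at least 200 bases at 90% identity or more were shared with 70 other genes by *Uimc1*, 21 by *Rbbp8*, 9 by *Brip1* and 1 by *Brcc3*. Reads placed equally well elsewhere were left out, which may lower their counts.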

How the data were processed

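RNA of dissected E13.5 cortex was made into 1 Click-seq library per embryo after depletion of ribosomal RNA. The authors trimmed adapters, aligned reads to mm10 with STAR, collapsed reads sharing a unique molecular identifier with UMI-tools and assigned the rest to genes with HTSeq (intersection-nonempty), and the values they deposited are these counts, without normalization. Reads not on a single gene, 23.3% to 31.8% per library, were left out. Tool versions in the submitters' processing notes are STAR 2.5.2a, UMI-tools 0.5.3, cutadapt 1.13 and HTSeq 0.6.1p1. The annotation release and strand setting are not given in the sources used here. Symbols and positions came from GENCODE M21 on GRCm38 and start-site windows from RefSeq.

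Embryos were grouped by labelled genotype. Each pair of groups was fitted alone, without covariates, with edgeR 4.0.16 in R 4.3.3 (filterByExpr at a minimum count of 10, TMM factors, quasi-likelihood test) with Benjamini-Hochberg adjustment across every gene in the fit. A gene was called at an adjusted p below 0.05. Standard errors are the log2 fold change divided by the square root of F, and 95% intervals use the residual degrees of freedom. CPM used factors over all 19 libraries, and a count of 3 was worth 0.369 to 3.71 CPM. Limits from counts cover counting error only. Genes named are the 9, up to 6 called partners with the smallest p per comparison, called list genes, neighbours within 1 kb of a start, and the 5 most like *Brca1*. *Abraxas2*, *Rnf8* and *Brap* in cKO-E were added after their values were seen. Members and lists were chosen with earlier results of these data known. One gene of a partner list is not reported here. Fits were tested on simulated counts. Alternatives were the likelihood-ratio test, DESeq2 1.42.0, other factors and filters, batch or sex as covariate, litter or title letter as block, 1 fit over all groups, single batches, stricter thresholds and each embryo left out. Leaving out libraries under 1500000 counts was chosen after seeing the data.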

Additional observations from a re-analysis of the deposited data

Results flagged for a closer look

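Within each genotype, the highest and lowest embryo of every gene was compared with the rest by Dixon's criterion at its 95% critical value, over 27 groups of 5 or 7 embryos. Chance alone marks about 1 in 20 groups, and 3 were marked here. *Brca1* stood at 149 CPM in dKO-E embryo B, the highest of 7, where the next embryo had 113 and the lowest 90.9. *Bard1* stood at 56.2 CPM in cKO-E embryo C, the lowest of 5, while the other 4 lay between 70.4 and 72.2. *Rbbp8* stood at 75.6 CPM in cKO-E embryo E, the highest of 5, with the next at 64.6 and the lowest at 60.6. Without dKO-E embryo B the *Brca1* log2 fold change of dKO-E against ctrl was -0.04 in place of 0.05, and neither value was called. Without cKO-E embryo E, *Rbbp8* was called lower in cKO-E than in ctrl, at -0.36 (adjusted p = 0.0281, edgeR).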

How the results depend on the processing

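Out of 9 genes, the number called in cKO-E against ctrl was 3 and stayed within 1.5 times in 24 of 28 alternatives. It was 5 with sex as a covariate (*Brca1* and *Rbbp8* added), 1 in batch 2 alone (*Abraxas1*), 1 at an adjusted p below 0.001, and 3 to 5 with each embryo left out, the 5 arising without ctrl embryo B. In dKO-E against ctrl it was 3, and 29 of 30 alternatives stayed within 1.5 times. It was 1 in batch 2 alone (*Brcc3*) and 3 to 4 with each embryo left out. Between dKO-E and cKO-E it was 1 (*Brip1*). It was 3 on total counts, 2 without a filter, 2 with sex as a covariate, 0 in 1 fit over all groups, 0 in batch 1 alone, 0 in batch 2 alone, 0 at an adjusted p below 0.01 or 0.001, 0 without libraries under 1500000 counts, chosen after seeing the data, and 0 to 3 with each embryo left out: 0 without cKO-E embryo C, 3 without dKO-E embryo A and 2 without cKO-E embryo E or dKO-E embryo D. *Abraxas1* was called against ctrl in 25 of 25 alternatives in cKO-E and in 27 of 28 in dKO-E, *Babam2* in 25 of 26 and 27 of 28, and *Brcc3* in 24 of 26 and 26 of 28. With at least 10 counts in every sample, *Abraxas1* was not tested in the comparisons with cKO-E.

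With the title letter as a replicate block the number called stayed at 3, 3 and 1, but in dKO-E *Brip1* (0.33, adjusted p = 0.0379, edgeR) replaced *Brcc3* (-0.41, adjusted p = 0.0502). The letters were not taken to pair embryos: the correlations of the deviations of same-letter embryos ran from -0.363 to 0.145, and only the ctrl and dKO-E embryos A and B shared a litter. Litter could not be a block between dKO-E and cKO-E, which shared none.

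Signs changed only for log2 fold changes that were not called, and the cause was not tested. In cKO-E, *Brip1* (-0.00) was 0.0251 on total counts, 0.0203 with batch as a covariate, 0.11 with the replicate block, 0.11 in batch 1 alone, 0.007 without the shallow libraries and -0.0701 to 0.0557 with each embryo left out. In dKO-E, *Brca1* was -0.0377 in batch 2 alone and -0.0375 to 0.10 with each embryo left out. *Bard1* was 0.0495 on total counts, 0.10 with litter as a block and -0.10 to 0.0187 with each embryo left out. *Rbbp8* was 0.0096 on total counts, 0.0592 with litter and 0.0144 in batch 1 alone. Between the mutants, *Abraxas1* was 0.0363 on total counts, 0.0044 without a filter, 0.22 in batch 2 alone and -0.12 to 0.0929 with each embryo left out. *Babam1* was 0.0004 in the likelihood-ratio test, 0.0505 on total counts, 0.0152 without a filter, 0.0045 with batch, 0.0122 with sex, 0.0167 in batch 1 alone, 0.007 without the shallow libraries and -0.0556 to 0.0425 with each embryo left out. *Babam2* was -0.034 in batch 2 alone, *Brcc3* was 0.021 in batch 1 alone, and *Uimc1* was -0.0397 with sex, -0.0661 in batch 1 alone and -0.0155 to 0.0759 with each embryo left out. Counts limited *Abraxas1* most, at 6 in the library with the fewest.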

Other observations

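Other pairs of subunits were set against each other as count ratios within each library. *Brca1* was counted 1.42 ± 0.178 times (SD, n = 7) for each count of *Bard1* in ctrl, 1.31 ± 0.125 times (SD, n = 5) in cKO-E and 1.49 ± 0.310 times (SD, n = 7) in dKO-E, and the ranges overlapped. *Brcc3* was counted 2.49 to 4.15 times for each count of *Abraxas1* in ctrl, 3.78 to 7.33 times in cKO-E and 3.33 to 6.50 times in dKO-E. *Babam1* was counted 1.33 to 2.78 times for each count of *Abraxas1* in ctrl, 2.56 to 5.33 times in cKO-E and 2.71 to 3.89 times in dKO-E. *Brip1* was counted 0.596 to 0.772 times for each count of *Brca1* in ctrl, 0.706 to 0.812 times in cKO-E and 0.540 to 0.886 times in dKO-E. These ratios were not tested.

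Of 10 further proteins reported to bind BRCA1, *Ube2l3*, a ubiquitin-conjugating enzyme, was called lower in cKO-E (-0.31, SE 0.09, adjusted p = 0.0258, edgeR) and *Brap* higher in both cKO-E (0.37, SE 0.12, adjusted p = 0.0401) and dKO-E (0.37, SE 0.10, adjusted p = 0.015). DESeq2 called 0 of these 10 genes higher in cKO-E, so the *Brap* call there depends on the tool, and 2 higher in dKO-E. *Cstf1*, a subunit of the polyadenylation factor that binds BARD1, rose in dKO-E against ctrl (0.28, SE 0.08, adjusted p = 0.0282, edgeR). The shares of all genes called lower and higher were 9.88% and 7.31% in cKO-E and 10% and 5.45% in dKO-E.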
